A study of Mus musculus with 203 samples.

Results

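Dexamethasone (DEX) was given to mice that had neither allergen nor smoke exposure, and the gene expression of their lung parenchyma was compared with that of untreated counterparts. The libraries were chosen by their titles alone: 10 parenchyma libraries titled PBS.AIR.DEX and 10 titled PBS.AIR, both of week 11, so 20 libraries, or 9.85% of all those of the series. All 20 came from female Balb/C mice aged 18 to 20 weeks that received phosphate buffered saline (PBS) into the nose, as the vehicle of house dust mite (HDM) extract, and breathed normal air, as the control of cigarette smoke (CS). The PBS.AIR.DEX group was in addition treated with DEX during week 11. The sources used here give neither its dose nor its route, and they do not say whether each library is a separate mouse, so that the p-values measure the spread between these samples. The rest of the series holds mice exposed to HDM, CS or both, with and without DEX, the airways of the same kinds of mice, and groups at week 3. RNA was sequenced in bulk, and values are given as CPM, a gene's share of the reads of its library after scaling by the TMM method, which corrects for differences in RNA composition.

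Dexamethasone is a synthetic glucocorticoid. It binds the glucocorticoid receptor, encoded by Nr3c1, which enters the nucleus, binds DNA at glucocorticoid response elements and switches on genes such as Fkbp5, Tsc22d3, Zbtb16 and Per1, and which also restrains NF-kB, AP-1 and interferon signalling. Glucocorticoids are known to lower the number of circulating lymphocytes and eosinophils, to raise that of circulating neutrophils, to mature the surfactant system of alveolar type II cells and to act on the peripheral circadian clock.

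The tissue label was checked against marker genes, on a scale shared by all 160 libraries of week 11. Sftpc, the surfactant protein of alveolar type II cells, averaged 15591 ± 2608 CPM in PBS.AIR parenchyma (mean ± SD, n = 10, as for all group means given in this form) and 7680 ± 3855 CPM in PBS.AIR airways. Krt5, a keratin of basal cells of the large airways, averaged 0.138 ± 0.158 CPM in parenchyma and 29.1 ± 25.5 CPM in airways. Scgb1a1, the secretoglobin of club cells, was present in parenchyma at 21240 ± 3859 CPM, against 49262 ± 5811 CPM in airways. Total counts ran from 22011675 to 29773989 in PBS.AIR and from 24329279 to 33869244 in DEX, and mitochondrial genes took 3.51% to 4.99% and 2.97% to 4.87% of it. On the first principal component of the 500 most variable genes, which held 39.4% of their variance, the PBS.AIR libraries lay between -16.6 and -9.42 and the DEX libraries between 4.77 and 25.3. The second component, with 14.9%, did not separate the groups. Each library has a code of X and a number, and the levels of clock genes differed between libraries of low, middle and high codes within both groups. The labels do not say what the codes stand for, and values for codes X1 to X60, X61 to X120 and X121 to X200 separately are given for clock genes, for some other genes and targets, and for some gene lists. The PBS.AIR library X126 was the highest of its group in several of the genes that were higher in DEX, and values without it are given for genes in which it stood apart.

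Of 15948 genes tested with limma-voom, 2749 were higher in DEX at a Benjamini-Hochberg adjusted p under 0.05, which is 17.2% of those tested, and 2883 were lower, which is 18.1%, or 35.3% in either direction. A log2 fold change of at least 1 as well was seen for 0.909% of the genes tested, and one of at most -1 for 2.32%, or 370 genes. In 384 genes every DEX library lay above every PBS.AIR library (2.41%), and in 408 every DEX library lay below (2.56%). These shares of all genes are the background for the counts of list members given below. The median log2 fold change (log2FC, DEX less PBS.AIR) over all genes was -0.0013. Among genes with a mean of at least 1 CPM in a group, the 10 largest falls were in Clca1, Cxcl9, Slc4a1, Gbp4, Ighg2b, Cd207, H2-M2, S1pr5, Hbb-bt and Alas2, and the 10 largest rises in Awat1, Cxcr1, Cd200r2, Gpnmb, Gdf15, Stra6l, Spon2, Apob, Hal and Ivl. Because this is bulk tissue, fewer cells of a type and less RNA per cell cannot be told apart in anything that follows.

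Cxcr1, a receptor for CXC chemokines of the interleukin 8 kind, had the smallest p of all genes. Its level was 1.78, 2.11 and 3.95 CPM (lowest, median and highest of 10 libraries) in PBS.AIR and 32.2, 39.6 and 44.6 CPM in DEX. The groups lay far apart, with a log2FC of 4.12 ± 0.12 (SE) and an adjusted p of 2.40e-16 (limma-voom), and it was 4.20 without X126. Gpnmb, a transmembrane glycoprotein of macrophages with a high lysosomal load, ran from 27.6 through a median of 36.7 to 88.9 CPM in PBS.AIR and from 205 through 237 to 299 CPM in DEX. All DEX libraries were above all PBS.AIR libraries, and the highest PBS.AIR library, X126, stood apart from the next at 40.6 CPM. Its log2FC was 2.65 ± 0.14 and became 2.78 without X126. Lhfpl2, a tetraspan membrane protein, completed the 3 rises of smallest p, from a mean of 15.7 ± 3.01 to 39.4 ± 3.02 CPM with no overlap.

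Other large rises were in Gdf15, a stress-induced hormone of the TGF-beta family, which had 0.405, 0.831 and 1.37 CPM in PBS.AIR and 1.95, 5.36 and 12.2 CPM in DEX. No DEX library reached down into the PBS.AIR range, although the highest DEX library was more than double the next. Hal, the histidine-degrading histidase, rose from 3.42 ± 1.86 to 14.4 ± 2.89 CPM, and Stra6l, a retinol transporter, from 1.36 ± 0.552 to 7.06 ± 1.09 CPM, again with no overlap. Without X126 their log2FC were 2.31 and 2.55, in place of 2.17 and 2.44. Spon2, a matrix protein bound by innate immune cells, had a log2FC of 2.43 ± 0.47 but overlapped, with 6 of 10 DEX libraries above all PBS.AIR libraries. Apob, the apolipoprotein of liver-derived and intestinal lipoproteins, had a log2FC of 2.38 ± 0.44 with the same overlap. The genes Awat1, Cd200r2 and Ivl were all low, at 1.79, 1.78 and 1.74 CPM on average in DEX. Without X126 the log2FC of Awat1 and Cd200r2 were 5.19 and 4.34, in place of 4.74 and 4.08.

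Clca1, a secreted protein of mucus-producing goblet cells, had the largest fall. It had 1.03, 3.76 and 19.3 CPM in PBS.AIR and 0, 0.0612 and 0.348 CPM in DEX, where no library held more than 10 reads of it. The groups did not overlap, and the log2FC was -5.82 ± 0.93, a size that rests on these few reads. In the fit of all 160 libraries of week 11 the calls of Clca1, Ighg2b and H2-M2 were lost, with adjusted p of 0.0888, 0.110 and 0.0617 (limma-voom). Gbp4, an interferon-induced guanylate-binding GTPase, had 161.95, 298 and 738 CPM in PBS.AIR and 23.8, 42.6 and 61.2 CPM in DEX. Every DEX library lay below every PBS.AIR library, for a log2FC of -2.89 ± 0.22 (adjusted p = 1.84e-09, limma-voom). Cd207, the langerin of Langerhans cells and of some lung dendritic cells, fell from 5.36 ± 1.44 to 0.995 ± 0.561 CPM, and S1pr5, a sphingosine phosphate receptor of natural killer cells, from 4.71 ± 0.843 to 1.10 ± 0.819 CPM, both with no overlap. The non-classical MHC gene H2-M2 fell from 1.78 ± 1.06 to 0.275 ± 0.121 CPM. The 3 falls of smallest p were in matrix and vessel genes. Ltbp4, which stores TGF-beta in the elastic matrix, went from 284 ± 39.2 to 112.4 ± 13.8 CPM. Fmod, the collagen-binding fibromodulin, went from 14.2 ± 1.67 to 4.15 ± 1.10 CPM. Rasip1, an endothelial regulator of small GTPases, went from 107.1 ± 8.09 to 65.01 ± 4.79 CPM.

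**Figure D1:**
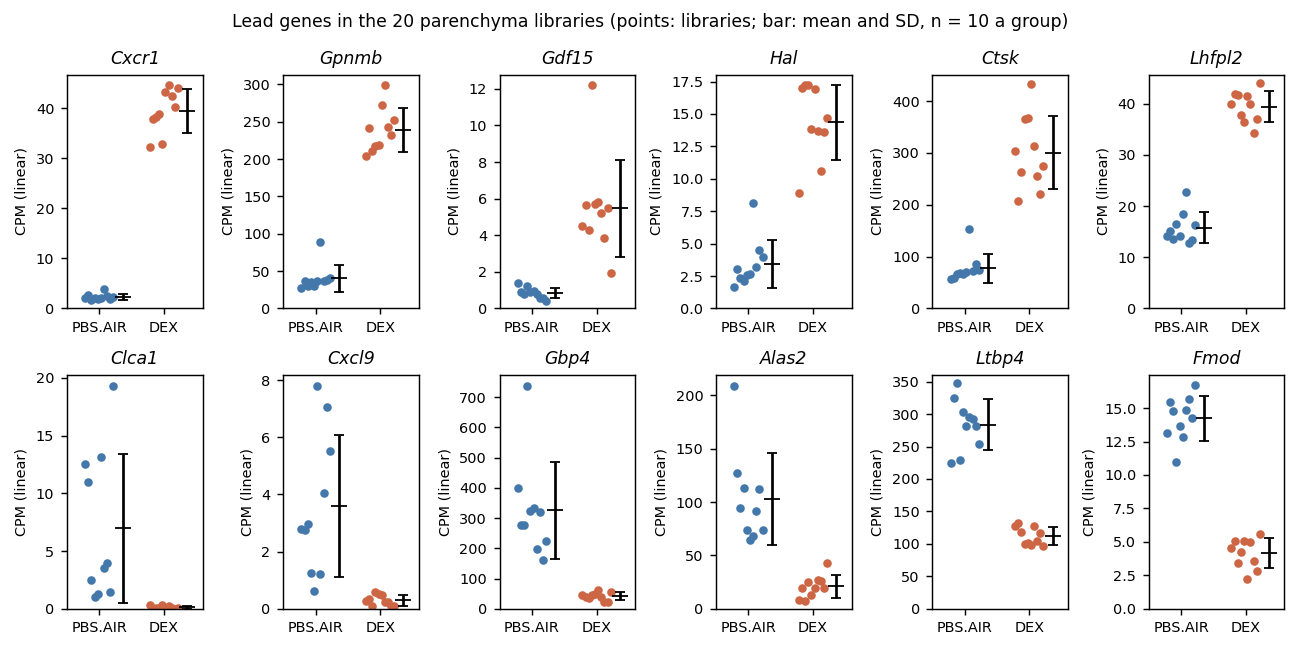
CPM (linear axes) of 12 genes in each of the 10 PBS.AIR (blue) and 10 DEX (orange) parenchyma libraries, in order of library code, with the mean and SD beside the points. In all 12 genes every DEX library lies on one side of every PBS.AIR library, and single PBS.AIR libraries stand apart in Gpnmb, Hal, Ctsk, Gbp4 and Alas2.

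The receptor itself, Nr3c1, had 246, 278 and 328 CPM in PBS.AIR and 208, 233 and 282 CPM in DEX. The groups overlapped and 8 of 10 DEX libraries lay below all PBS.AIR libraries, for a log2FC of -0.25 ± 0.05 (adjusted p = 0.000920, limma-voom). Of 18 genes of the receptor machinery (the receptor, its chaperones, the enzymes that activate or inactivate its ligand and its cofactors), 2 were higher and 2 lower, and the list median was 0.02. Over all genes 17.2% were higher and 18.1% lower. The chaperone gene Hsp90aa1 had a log2FC of 0.49 ± 0.13 and the acetyltransferase gene Crebbp of -0.26 ± 0.07. Hsp90aa1 was higher in codes X1 to X60 (0.83) and X121 to X200 (0.75), but not in X61 to X120 (-0.19).

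Of 32 genes listed as induced by glucocorticoids, 5 were higher and 8 were lower in DEX, against 17.2% and 18.1% of all genes, and the list median was -0.16. Zbtb16, a zinc finger repressor that is among the most glucocorticoid-responsive genes, had 12.0, 28.9 and 99.8 CPM in PBS.AIR and 5.29, 8.68 and 31.5 CPM in DEX. The ranges overlapped, with 7 of 10 DEX libraries below all PBS.AIR libraries, and the log2FC was -1.70 ± 0.46 (adjusted p = 0.00603, limma-voom). Tsc22d3, which encodes the anti-inflammatory protein GILZ, had 125.6, 285 and 551 CPM in PBS.AIR and 83.1, 96.3 and 352 CPM in DEX, for a log2FC of -1.13 ± 0.31. Fam107a, an actin-associated stress gene, had a log2FC of -1.05 ± 0.32, and Sesn1, a sestrin of the p53 and FoxO responses, of -0.53 ± 0.04 with no overlap. Fkbp5, the receptor co-chaperone whose rise is a usual sign of receptor activity, had 12.1, 18.3 and 71.1 CPM in PBS.AIR and 19.6, 23.9 and 53.5 CPM in DEX, for a log2FC of 0.08 ± 0.29 that did not pass the test (adjusted p = 0.858, limma-voom). The scavenger receptor gene Cd163, the phagocytic kinase gene Mertk and the cell cycle inhibitor gene Cdkn1c fell by 0.83, 0.35 and 0.34 on the log2 scale. The call of Cdkn1c was lost without library X88, X108 or X188, with an adjusted p of at most 0.0558 (limma-voom).

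Lcn2, the iron-scavenging lipocalin, was the target with the largest rise, from 41.3, 98.9 and 271 CPM to 215, 378 and 509 CPM, with 9 of 10 DEX libraries above all PBS.AIR libraries. Anxa1, a mediator of glucocorticoid action on leukocytes, rose from 564 ± 41.02 to 798 ± 40.1 CPM with no overlap (log2FC 0.50 ± 0.05). Sgk1, the kinase that raises sodium channel activity, rose by a log2FC of 0.34 ± 0.05. Il1r2, the decoy receptor of interleukin 1, and Mt2, a metallothionein, passed at 0.81 ± 0.30 and 0.60 ± 0.23, but Il1r2 lost its call when any of 9 single libraries was left out and Mt2 when any of 11 was, with adjusted p of at most 0.0752 and 0.0992 (limma-voom). The other 19 members did not pass, among them Dusp1 (-0.21), Klf9 (-0.24), Klf15 (-0.46), Pdk4 (0.18), Ddit4 (-0.10), Cebpd (-0.45), Nfkbia (-0.15) and Zfp36 (-0.01). With each run of 20 codes as a term, Klf15, Glul, Klf9, Dusp1 and Hif3a passed as lower (adjusted p = 0.000295, 0.00387, 0.0112, 0.0216 and 0.0493, limma-voom), and Klf15, Glul and Klf9 did so with the range of codes as a term.

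The promoters of members that moved in opposite directions are shown for comparison. The sequences are the 250 bases before the RefSeq start on GRCm38.p6, read 5′ to 3′ on the gene's strand, with capitals for letters that match the response element GNACANNNTGTNC, searched on both strands. Sgk1, which was higher, has a promoter at chr10:21993640-21993889 on the plus strand. Fam107a, which was lower, has a promoter at chr14:8309780-8310029 on the minus strand. Both windows lie before a start within the annotated span of the gene. That of Fam107a shares 16 bases with an annotated exon of its transcript Fam107a-204. Another RefSeq start of Fam107a, with the window chr14:8309778-8310027, holds the same match and is not shown.
Sgk1: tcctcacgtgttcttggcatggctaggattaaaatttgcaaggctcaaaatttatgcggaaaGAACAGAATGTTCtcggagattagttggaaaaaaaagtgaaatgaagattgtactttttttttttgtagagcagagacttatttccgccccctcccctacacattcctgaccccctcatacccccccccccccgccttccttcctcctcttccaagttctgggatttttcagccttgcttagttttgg
Fam107a: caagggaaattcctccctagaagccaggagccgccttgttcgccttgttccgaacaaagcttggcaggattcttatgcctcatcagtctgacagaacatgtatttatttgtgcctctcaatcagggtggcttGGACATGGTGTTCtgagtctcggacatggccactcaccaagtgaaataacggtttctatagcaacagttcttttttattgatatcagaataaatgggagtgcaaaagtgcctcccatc
Of 27 listed targets with a promoter in the table, 3 held such a match, or 11.1%, and so did 0.325% of the 11710 tested genes with a promoter and 0.387% of all 32851 promoters. The third was Mt1, a metallothionein gene with a log2FC of 0.10 that did not pass the test. A match is only a description of the letters.

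Circadian clock genes form feedback loops in which Arntl and its partners Clock and Npas2 drive Per, Cry, Nr1d and Dbp genes through E boxes. Of 19 tested, 5 were higher and 8 were lower, against 17.2% and 18.1% of all genes, with a list median of -0.52. The levels within each group followed the library codes closely. Arntl averaged 14.6, 33.5 and 2.67 CPM in the PBS.AIR libraries of codes X1 to X60 (3 libraries), X61 to X120 (3) and X121 to X200 (4), and 40.97, 21.5 and 35.8 CPM in the DEX libraries of the same codes (3, 3 and 4). Its log2FC was thus 1.49 ± 0.10 in the first range, -0.63 ± 0.12 in the second and 3.73 ± 0.15 in the third, beside 1.75 ± 0.44 over all 20 libraries. Npas2 did the same, with 1.98 ± 0.21, -1.19 ± 0.14 and 4.58 ± 0.22 in the 3 ranges and 2.06 ± 0.54 over all. Its call was lost with each run of 20 codes as a term (adjusted p = 0.0524, limma-voom).

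Nr1d1, the REV-ERB alpha repressor, averaged 3.48, 1.92 and 46.4 CPM in PBS.AIR and 10.7, 84.3 and 5.08 CPM in DEX over the 3 ranges. It did not pass over all libraries (log2FC 0.85), while its log2FC within ranges was 1.69 ± 0.26, 5.46 ± 0.24 and -3.17 ± 0.20. Nr1d2 had -1.12 ± 0.13, 2.33 ± 0.12 and -3.08 ± 0.12, and Dbp, a D-box activator, had -1.46 ± 0.20, 1.70 ± 0.24 and -3.28 ± 0.24. These genes changed direction between ranges, so that their values over all libraries average opposite differences. Other members kept 1 direction. Per1 had -1.34 ± 0.21, -1.13 ± 0.22 and -1.41 ± 0.22, Per2 had -1.70 ± 0.17, -1.96 ± 0.10 and -1.20 ± 0.20, and Hlf had -1.55 ± 0.16, -2.04 ± 0.18 and -1.90 ± 0.15. Per1 had 15.3, 38.9 and 120.2 CPM in PBS.AIR and 6.47, 14.5 and 62.99 CPM in DEX over all libraries, for a log2FC of -1.31 ± 0.45, and its call was lost without library X146, X68 or X88 (adjusted p of at most 0.0521, limma-voom). With the range of codes as a term its adjusted p was 1.19e-06 (limma-voom).

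The targets Zbtb16 and Tsc22d3 were lower in each range, by 1.56, 1.12 and 2.22 and by 1.44, 0.79 and 1.14 on the log2 scale. Both stood highest in the PBS.AIR libraries X121 to X200, where Zbtb16 averaged 77.8 CPM against 24.1 and 14.5 CPM in the lower ranges. Fkbp5 differed by 0.34 ± 0.10, 0.68 ± 0.12 and -0.54 ± 0.23 in the 3 ranges and was also highest in PBS.AIR libraries X121 to X200, at 51.5 CPM against 17.8 and 13.8 CPM. What sets the ranges apart was not tested. Of the 5632 genes that passed over all libraries, 5195 had the same sign in each range. The ranges are parts of the same 20 libraries, so a gene called over all of them tends to keep its sign. No number to be expected was computed. The difference between groups varied with the range in 589 of the 15948 genes tested, at an adjusted p under 0.05 (limma-voom). That test was chosen after the clock gene levels had been seen.

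**Figure D2:**
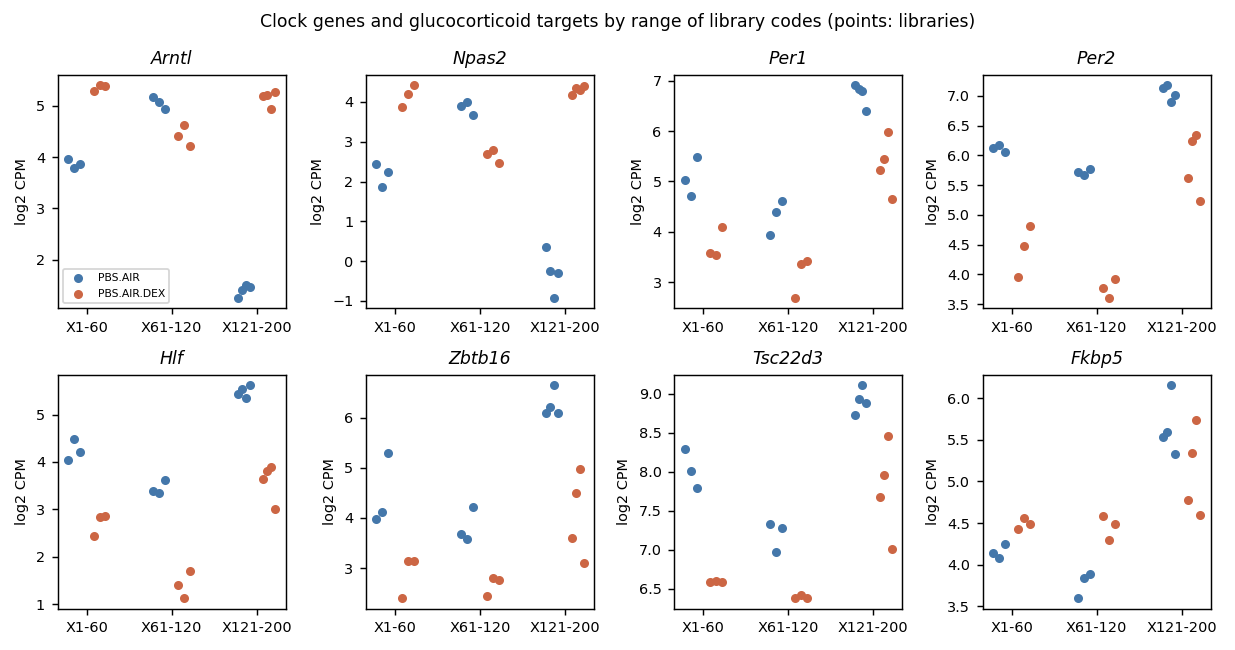
Log2 CPM of 5 clock genes and 3 glucocorticoid targets (Per1 is both) in the PBS.AIR (blue) and DEX (orange) libraries, by range of library codes, 1 point a library. Arntl and Npas2 are lower in DEX only in codes X61 to X120, while Per2 and Hlf are lower in DEX in each range.

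Interferon-induced genes were lower together. Of 22 type I interferon response genes 17 fell and none rose, against 18.1% and 17.2% of all genes, with a median of -0.67. Rsad2, the antiviral viperin, had 3.87, 6.73 and 9.52 CPM in PBS.AIR and 1.83, 2.68 and 4.83 CPM in DEX, with 7 of 10 DEX libraries below all PBS.AIR libraries. Zbp1, a sensor of Z-form nucleic acids, had a log2FC of -1.19 ± 0.16, and Ifi44 and Isg15 had -1.12 and -0.79. Ifit2 (-0.06), Oas1a (-0.19) and Mx1 (-0.73) were among the members that did not pass. Genes induced by interferon gamma were added as a list after the values of Gbp4 and Cxcl9 were known. Of these 30, 28 fell and none rose, with a median of -0.80, and in 16 the groups did not overlap. Gbp4 and Cxcl9, which prompted the list, are counted in both. Over all genes 2.56% were lower with no overlap. Iigp1, an immunity-related GTPase, went from 81.3 ± 33.96 to 26.2 ± 6.44 CPM, and Nlrc5, the activator of MHC class I genes, from 23.6 ± 5.38 to 8.37 ± 1.22 CPM. Irf1 (-0.33), H2-D1 (-0.38) and Tap2 (-0.27) also fell.

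All 10 genes of MHC class II presentation fell, with a median of -1.20, and in 7 of them the groups did not overlap. Over all genes 18.1% were lower, and 2.56% were lower with no overlap. The medians in the 3 code ranges were -1.36, -0.57 and -1.41. H2-Ab1 had 160.1, 212 and 321 CPM in PBS.AIR and 56.6, 81.01 and 137.6 CPM in DEX. H2-Eb1 had 149.8, 214 and 288 CPM in PBS.AIR and 58.1, 74.7 and 127.4 CPM in DEX (log2FC -1.34 ± 0.15). In both genes the highest DEX library stayed below the lowest PBS.AIR library. Their activator Ciita had a log2FC of -1.21, the invariant chain gene Cd74 of -1.03, and the peptide exchange genes H2-DMa and H2-DMb1 of -0.98 and -0.85. Genes of B cells and dendritic cells, which carry MHC class II, fell as well, and their part in these values was not tested.

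The interferon and MHC class II members are shown with the promoter letters they share. In H2-Aa (chr17:34287824-34288073, minus strand) and H2-Eb1 (chr17:34305617-34305866, plus strand, partly within an annotated exon of the predicted gene Gm20513), capitals mark the Y box CTGATTGG. In Ifit3 (chr19:34583279-34583528, plus strand) and Isg15 (chr4:156200819-156201068, minus strand), they mark the interferon element core GAAANNGAAA, which in Isg15 includes overlapping matches. Both strands were searched in the 250 bases before the RefSeq start (GRCm38.p6).
H2-Aa: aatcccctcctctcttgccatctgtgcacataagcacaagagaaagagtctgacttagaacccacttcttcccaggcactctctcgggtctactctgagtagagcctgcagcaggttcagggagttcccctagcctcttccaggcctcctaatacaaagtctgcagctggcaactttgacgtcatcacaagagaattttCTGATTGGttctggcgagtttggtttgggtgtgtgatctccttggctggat
H2-Eb1: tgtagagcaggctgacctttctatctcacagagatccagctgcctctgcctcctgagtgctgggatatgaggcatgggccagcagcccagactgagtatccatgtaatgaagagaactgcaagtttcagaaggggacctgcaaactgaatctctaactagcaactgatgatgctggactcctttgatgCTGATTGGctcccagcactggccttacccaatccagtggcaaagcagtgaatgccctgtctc
Ifit3: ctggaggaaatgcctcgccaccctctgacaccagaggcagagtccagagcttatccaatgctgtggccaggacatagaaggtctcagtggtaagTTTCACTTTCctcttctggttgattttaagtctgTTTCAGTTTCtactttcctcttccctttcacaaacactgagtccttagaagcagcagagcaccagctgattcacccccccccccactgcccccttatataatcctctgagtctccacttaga
Isg15: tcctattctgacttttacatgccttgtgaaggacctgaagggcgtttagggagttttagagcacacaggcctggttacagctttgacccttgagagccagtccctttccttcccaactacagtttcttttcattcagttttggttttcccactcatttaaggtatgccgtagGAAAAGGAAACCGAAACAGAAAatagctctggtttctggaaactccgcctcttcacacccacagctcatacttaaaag
The Y box letters stood in 3 of 7 MHC class II genes with a promoter in the table (H2-Aa, H2-Eb1 and H2-Oa), or 42.9%, and in 6.11% of tested genes and 3.83% of all promoters. The interferon element core stood in 8 of 14 type I interferon response genes, or 57.1%, and in 3.32% of tested genes and 2.98% of all promoters. Of these 8, Oas1a and Oas3 did not pass the test. H2-Aa had a log2FC of -1.20, Ifit3 of -0.81 and Isg15 of -0.79.

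Lymphoid genes fell broadly. All 14 genes of natural killer and cytotoxic cells fell, with a median of -1.80, and in 12 the groups did not overlap. The list as written also holds Cma1, a chymase of mast cells. For all genes the shares were 18.1% lower and 2.56% lower with no overlap. Gzma, a granule protease, had 57.2, 78.8 and 152.2 CPM in PBS.AIR and 6.78, 22.1 and 53.9 CPM in DEX, for a log2FC of -2.002 ± 0.32. Eomes, a transcription factor of killer cells, fell from 3.65 ± 0.711 to 1.10 ± 0.694 CPM, and the activating receptor gene Ncr1 had a log2FC of -1.96. Of 21 T cell genes 19 fell, with a median of -1.09. Lck, the kinase next to the T cell receptor, had 17.1, 20.9 and 26.3 CPM in PBS.AIR and 3.88, 8.59 and 13.7 CPM in DEX with no overlap, and the receptor gene Trac had a log2FC of -1.03. Of 18 B cell genes 16 fell, with a median of -1.08. Cd72, a B cell coreceptor, went from 7.79 ± 1.29 to 2.91 ± 1.65 CPM, and Ms4a1, the CD20 gene, had a log2FC of -1.08. Of 10 plasma cell genes 5 fell and 1 rose, among them Igha, the heavy chain of IgA, from 64.6 ± 29.96 to 17.5 ± 4.17 CPM. The joining chain gene Jchain and the IgG chain gene Ighg2b had log2FC of -1.61 and -2.68, and -1.38 and -2.39 without the high PBS.AIR library X126. The medians of these lists varied with the range of codes and were nearest to 0 in X61 to X120. Over codes X1 to X60, X61 to X120 and X121 to X200 the medians were -1.14, -0.02 and -1.82 for B cell genes, -0.98, -0.40 and -1.50 for T cell genes, -0.69, -0.25 and -1.59 for plasma cell genes and -1.90, -0.96 and -2.31 for natural killer and cytotoxic cell genes. These differences between ranges were not tested for the lists. Of 7 thymocyte genes, which T cells share in part, 6 fell and 1 rose.

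Of 17 dendritic cell genes 13 fell and none rose, against 18.1% and 17.2% of all genes, with a median of -0.72. Xcr1, the chemokine receptor of cross-presenting dendritic cells, had 3.09, 4.73 and 5.81 CPM in PBS.AIR and 0.932, 1.04 and 1.95 CPM in DEX. Its partner marker Clec9a went from 7.35 ± 1.24 to 2.19 ± 0.703 CPM, and Siglech, a marker of plasmacytoid dendritic cells, from 3.60 ± 0.867 to 1.26 ± 0.557 CPM. Xcr1 and Clec9a did not overlap between groups. Cd209a (0.01), Cd83 (0.13) and Ccl17 (0.60) did not pass. Of 9 genes of eosinophils, mast cells and basophils 6 fell and 1 rose. Ms4a2, a chain of the IgE receptor, fell from 0.884 ± 0.321 to 0.114 ± 0.157 CPM, and the chymase gene Cma1 from 2.88 ± 0.912 to 0.754 ± 0.456 CPM. Hdc, the histamine-forming enzyme, which neutrophils also express, rose from 41.6 ± 11.6 to 108.4 ± 35.5 CPM.

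All 8 red cell genes fell, against 18.1% of all genes, with a median of -2.22. Hba-a1, an alpha globin, had 1364, 2584 and 5869 CPM in PBS.AIR and 201.4, 581 and 903 CPM in DEX. Alas2, the first enzyme of haem synthesis in red cell precursors, had 64.9, 93.3 and 209 CPM in PBS.AIR and 6.98, 19.9 and 42.96 CPM in DEX. In both genes all DEX libraries were below all PBS.AIR libraries. The list medians in the 3 code ranges were -3.70, -1.61 and -1.61. The difference in Alas2 shrank along the code ranges, with log2FC of -3.70 ± 0.37, -2.17 ± 0.27 and -1.59 ± 0.21. The summed level of the 9 red cell genes in the table ran from 5442 to 27336 CPM in PBS.AIR and from 891 to 5082 CPM in DEX. Globin genes are near-identical copies, so their reads can be shared out uncertainly among them. The blood left in each lung was not tested.

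Cytokine and chemokine genes moved in both directions: of 33 tested, 12 rose and 10 fell, against 17.2% and 18.1% of all genes. Cxcl9, an interferon gamma-induced attractant of T cells, had 0.629, 2.87 and 7.80 CPM in PBS.AIR and 0.0802, 0.257 and 0.577 CPM in DEX, for a log2FC of -3.41 ± 0.60. Ccl5, made by T and killer cells, fell from 27.98 ± 7.87 to 6.92 ± 3.81 CPM, and Cxcl10 and Ccl8 had log2FC of -1.46 and -1.94. Cxcl1, a neutrophil attractant, had 2.97, 3.89 and 7.09 CPM in PBS.AIR and 9.12, 13.6 and 33.9 CPM in DEX with no overlap (log2FC 1.86 ± 0.27), while the related Cxcl2 and Cxcl5 had 0.92 and 0.99 and Cxcl3 did not pass (-0.11). The monocyte attractant Ccl2 had a log2FC of 1.09, the myeloid chemokine Ccl6 of 1.58 and Ptgs2, the inducible cyclooxygenase, of 1.24. Tnf (-0.41), Il1b (0.28) and Ccl11 (-0.54) did not pass.

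Neutrophil genes rose in 11 of 17 cases and fell in none, with a median of 0.77. The medians in codes X1 to X60, X61 to X120 and X121 to X200 were 0.84, 1.05 and 0.33. Clec4d, a C-type lectin, had 7.20, 9.16 and 19.1 CPM in PBS.AIR and 17.8, 22.5 and 31.5 CPM in DEX. S100a8, a calprotectin chain, had 28.6, 45.8 and 139.8 CPM in PBS.AIR and 66.8, 103.5 and 149.8 CPM in DEX. The ranges overlapped in all 17 genes. PBS.AIR library X166 was the highest of its group in S100a8 and Clec4d. Camp and Ngp, granule genes of immature neutrophils, did not pass (0.25 and -0.40). Of 15 acute phase and alarmin genes 7 rose and 2 fell, with Lrg1, a leucine-rich glycoprotein, going from 24.9 ± 7.74 to 66.01 ± 27.4 CPM and Serpina3n, a protease inhibitor, from 18.8 ± 4.40 to 38.3 ± 10.7 CPM. Of 15 leukocyte adhesion genes 3 rose and 8 fell, the largest falls being in the integrin genes Itgae (-1.10), Itgb7 (-0.97) and Itga4 (-0.91). Itgae is also a member of the dendritic cell list. Of 23 negative regulators of NF-kB and cytokine signalling 5 rose and 6 fell, near the 17.2% and 18.1% of all genes, with Socs3 at 0.64 ± 0.11 and the phosphatase gene Dusp2 at -1.52 ± 0.28. The value of Dusp2 was 0.02 in codes X61 to X120.

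Genes listed for alveolar macrophages divided, with 6 of 14 higher and 4 lower, against 17.2% and 18.1% of all genes. Chil3, a chitinase-like protein, had 401, 453 and 803 CPM in PBS.AIR and 951, 1454 and 1839.95 CPM in DEX. Atp6v0d2, a subunit of the macrophage proton pump, had 67.5, 78.8 and 131.9 CPM in PBS.AIR and 185.1, 212 and 265 CPM in DEX. Neither gene overlapped between groups, and Chil3 had a log2FC of 1.53, or 1.61 without X126. By contrast Fabp1, a fatty acid-binding protein, fell from 9.78 ± 1.64 to 2.83 ± 1.76 CPM and Ear1, an eosinophil-associated ribonuclease of these macrophages, from 52.9 ± 8.17 to 15.7 ± 7.40 CPM. Of the other members, Plet1 (0.85), Marco (0.75), Pparg (0.49) and Cd9 (0.38) rose, and Ear2 (-1.24) and Lpl (-0.45) fell. Siglecf (-0.25), Krt79 (-0.22), Car4 (-0.17) and Mrc1 (0.16) did not pass. Of 19 genes of monocytes and interstitial macrophages 10 fell and 2 rose, with Cd68, a lysosomal membrane protein of all macrophages, going from 49.2 ± 13.1 to 110.3 ± 14.1 CPM and Treml4, of non-classical monocytes, from 6.61 ± 0.464 to 3.02 ± 0.943 CPM. The log2FC of Cd68 was 1.19, and 1.28 without X126.

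Genes of the lysosome were added as a list after the values of Gpnmb and Ctsk were seen. Of 34 tested 25 rose and 1 fell, with a median of 0.35, and in 13 the groups did not overlap. Ctsk, which helped to prompt the list, is counted among those that rose and those with no overlap. The shares over all genes were 17.2% higher, 18.1% lower and 2.41% higher with no overlap. Ctsk, the collagen-degrading cathepsin K, had 57.6, 69.1 and 152.9 CPM in PBS.AIR and 207, 289.5 and 432 CPM in DEX (log2FC 1.99 ± 0.15, and 2.10 without X126). Ctsd, the main aspartic cathepsin, had 664, 776 and 1181 CPM in PBS.AIR and 1787, 2050.1 and 2196 CPM in DEX. Library X126 was the highest PBS.AIR library in both, and both still did not overlap. Without X126 the log2FC of Ctsd was 1.42 in place of 1.35. Mcoln3, a lysosomal cation channel, went from 6.90 ± 0.658 to 18.1 ± 2.81 CPM. The regulators Tfeb (-0.21) and Tfe3 (-0.01) did not pass, and Mitf rose by 0.24. The E box letters CACGTG stood in the promoters of 9 of 26 of these genes, or 34.6%, Ctsd among them, and in 9.35% of tested genes and 6.02% of all promoters. In clock genes the same letters stood in 5 of 16, or 31.2%.

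Alveolar type II cell genes rose in 13 of 14 cases, with a median of 0.80, and in 9 the groups did not overlap. Over all genes 17.2% were higher, and 2.41% were higher with no overlap. Cxcl15, the lung-specific chemokine lungkine, had 731, 1096 and 2236 CPM in PBS.AIR and 2659, 3885 and 4531 CPM in DEX, for a log2FC of 1.64 ± 0.17. Sftpd, the collectin surfactant protein D, had 691, 873 and 1294 CPM in PBS.AIR and 1695, 1796 and 2059.9 CPM in DEX. In both, the lowest DEX library was above the highest PBS.AIR library. The surfactant genes Sftpa1, Sftpb and Sftpc had log2FC of 0.83, 0.76 and 0.43, the phospholipid transporter gene Abca3 of 0.85 and Lamp3, of lamellar bodies, of 0.92 ± 0.08. The 1 member that did not pass was Ppp1r14c (0.18). The summed level of the 14 genes ran from 24159 to 37208 CPM in PBS.AIR and from 39762 to 50115 CPM in DEX. Of 12 type I cell genes 6 rose and 1 fell, and their summed level overlapped, from 10512 to 12084 CPM and from 11769 to 13442 CPM. Ager, the receptor RAGE of type I cells, had a log2FC of 0.31 ± 0.06.

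Genes of lipid synthesis, on which surfactant depends, rose with these. Of 23 cholesterol and fatty acid synthesis genes 16 rose and 1 fell, against 17.2% and 18.1% of all genes, with a median of 0.43. Sqle, squalene epoxidase, had 27.6, 34.6 and 43.2 CPM in PBS.AIR and 46.9, 54.8 and 61.9 CPM in DEX, and Fasn, fatty acid synthase, had 123.4, 207 and 232 CPM and 240.5, 292 and 432 CPM. Neither overlapped between groups. Acaca, acetyl-CoA carboxylase, had a log2FC of 0.79, and Srebf1 and Srebf2, transcriptional regulators of the pathway, did not pass (0.07 and 0.18). Of 24 genes of fatty acid use and fasting 9 rose and 1 fell, Cpt1b, of mitochondrial fatty acid import, by the most (0.94 ± 0.19) and Foxo1 downwards (-0.53).

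Sodium and fluid transport genes rose in 10 of 15 cases and fell in none, against 17.2% and 18.1% of all genes, with a median of 0.24. Cftr, the chloride channel, had 36.4, 43.8 and 52.3 CPM in PBS.AIR and 64.3, 81.2 and 93.2 CPM in DEX, with no overlap and a log2FC of 0.91 ± 0.08. Slc26a9, an anion channel, went from 52.3 ± 9.67 to 94.2 ± 9.11 CPM. The sodium channel subunit genes Scnn1b and Scnn1g rose by 0.53 and 0.30, and Scnn1a (0.24) did not pass. Of 17 club and mucus cell genes 9 rose and 1 fell, with Bpifa1, an airway antimicrobial protein, at 1.97 ± 0.43, Scgb1a1 at 0.51 and Tff2, a trefoil peptide of mucus cells, at -1.49 ± 0.40. Of 15 ciliated cell genes 8 rose by 0.32 to 0.42, none fell, and Foxj1, their master regulator, did not pass (0.19). The summed levels of both lists overlapped between groups, at 19731 to 35344 CPM and 26459 to 49056 CPM for club and mucus cells. How much airway each piece of parenchyma held was not tested.

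Endothelial genes fell in 11 of 16 cases and rose in none, against 18.1% and 17.2% of all genes, with a median of -0.32. Apln, a peptide of tip cells and aerocytes, had 41.9, 60.4 and 73.3 CPM in PBS.AIR and 25.2, 34.6 and 45.7 CPM in DEX, with 8 of 10 DEX libraries below all PBS.AIR libraries. Vwf and Cdh5 had log2FC of -0.45 and -0.19, and Kdr (-0.04) did not pass. Of 12 alveolar fibroblast genes 4 rose and 6 fell. Mfap4, a microfibril protein, had 294, 410.1 and 526 CPM in PBS.AIR and 113.6, 157.7 and 233 CPM in DEX, with no overlap. Wnt2 rose (0.53) and Tcf21 fell (-0.68). Of 28 collagen and matrix genes 8 rose and 8 fell, against 17.2% and 18.1% of all genes, with a median of 0.04. Fn1, fibronectin, went from 289 ± 36.3 to 159.9 ± 23.04 CPM. Eln, elastin, had a log2FC of 0.64, and Tnc, tenascin C, of 1.02 ± 0.29. Col1a1 (0.07) and Col3a1 (-0.27) did not pass. Of 7 mesothelium genes 4 rose and none fell, and the summed level did not overlap, at 185.6 to 275 CPM and 337 to 477 CPM. Most of that sum was Krt19, a keratin of many epithelia. The mean of the members' log2 levels, in which each gene counts equally, overlapped between groups. Krt19 rose by 0.80 ± 0.07, and Msln, mesothelin, by 0.60 ± 0.16, while Upk3b, of mesothelium more strictly, did not pass (0.05).

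Proliferation genes fell in 24 of 30 cases, with a median of -0.59, and 1 rose, Bub1. Mki67, the marker of cycling cells, had 10.8, 22.3 and 34.5 CPM in PBS.AIR and 8.02, 10.2 and 14.5 CPM in DEX, with 7 of 10 DEX libraries below all PBS.AIR libraries. Ccna2 and Top2a had log2FC of -1.13 and -1.001. Of 17 adrenergic and bronchomotor receptor genes 2 rose and 6 fell. Adrb1 had 27.97, 39.3 and 52.7 CPM in PBS.AIR and 19.1, 23.8 and 27.3 CPM in DEX. Of 22 immediate early genes 2 rose and 5 fell, against 17.2% and 18.1% of all genes, and of 13 heat shock genes 1 rose, Hspd1, by 0.37. The medians of the heat shock genes were 0.41, -0.26 and 0.22 in the 3 code ranges. Muscle, fat and neighbouring organs were checked as sources of RNA. Of 13 smooth muscle genes 1 rose and 4 fell, of 11 cardiac muscle genes 1 rose and 3 fell, and of 3 skeletal muscle genes 2 rose. Of 8 adipose genes 2 rose and 2 fell, and of 2 cartilage and thyroid genes 1 rose and 1 fell. With 17.2% higher and 18.1% lower over all genes, counts in lists this short do not decide whether RNA from these sources differed. The 14 skeletal muscle genes in the table summed to 4.09 to 7.00 CPM in PBS.AIR and 5.79 to 10.3 CPM in DEX.

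**Figure D3:**
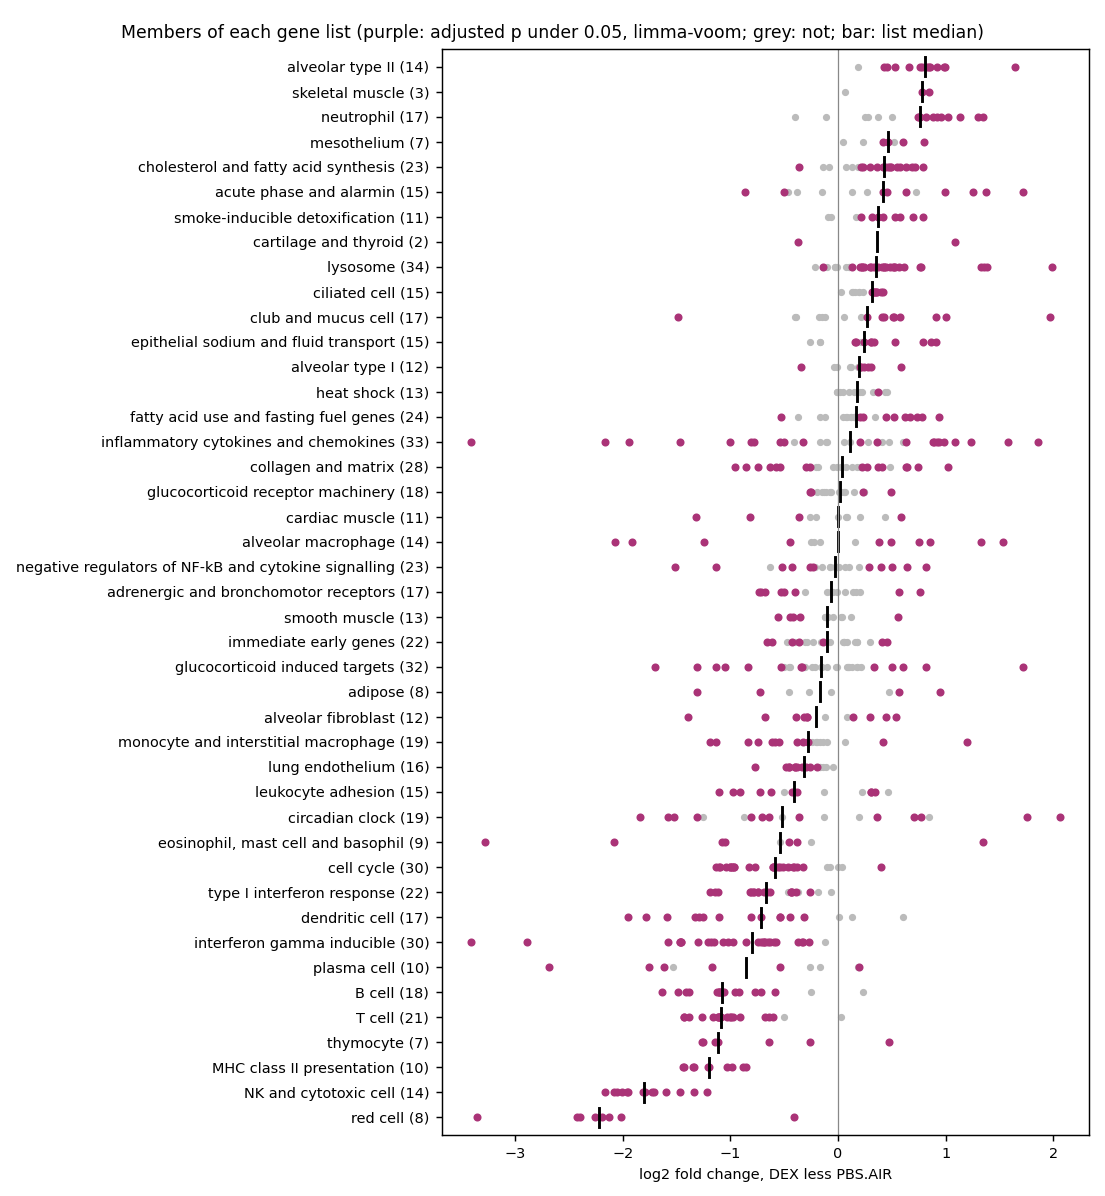
Log2FC (DEX less PBS.AIR, horizontal axis) of every tested member of each gene list, with the number tested in brackets and lists in order of their median (black bar). Purple members passed an adjusted p under 0.05 (limma-voom) and grey members did not; red cell and natural killer cell genes lie lowest, at medians of -2.22 and -1.80, and alveolar type II genes highest, at 0.80.

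The same DEX contrast was compared in 3 other settings at week 11, chosen because each differs from this one in 1 factor, and none shares a library with it: airways of PBS.AIR mice, parenchyma of HDM.AIR mice and parenchyma of PBS.CS mice, each with 10 libraries a group. Fitted on their own, they gave 802, 1880 and 1483 genes higher (4.75%, 11.5% and 9.24% of those tested) and 827, 2472 and 1628 lower (4.89%, 15.1% and 10.1%). Of genes tested in both parenchyma and airways, 640 were higher in both, which is 23.4% of those higher in parenchyma and 80.4% of those higher in airways, 621 were lower in both (21.6% and 77%), and 4 passed in opposite directions. Over 15865 genes the log2FC of the 2 tissues had a Pearson r of 0.739, against 0.554 for HDM.AIR and 0.611 for PBS.CS parenchyma, as a description across genes that are not independent. The labels do not say whether the airways and the parenchyma came from the same mice. Such sharing would bear on the overlap and r of the 2 tissues, and their libraries were taken as unpaired. A test of the difference passed for 62 genes between tissues, or 0.360% of those tested. The smallest p were for Hr, the hairless corepressor, which had a log2FC of -1.34 ± 0.12 in parenchyma and -0.25 ± 0.10 in airways, for Tnfsf13, the B cell factor APRIL (0.77 ± 0.09 and 0.03 ± 0.08), and for Dmkn, the epithelial secreted protein dermokine (1.01 ± 0.14 and -0.10 ± 0.12). Ltbp4 also fell more in parenchyma, with -1.33 ± 0.12 against -0.48 ± 0.12 (adjusted p of the difference 0.0173, limma-voom).

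Between PBS.AIR and HDM.AIR mice the effect of DEX differed in 2676 genes (15.9% of those tested). Slpi, a secreted inhibitor of leukocyte proteases, had the smallest p. It had 22.6, 43.5 and 83.5 CPM in PBS.AIR and 34.8, 47.1 and 63.6 CPM in DEX here, a log2FC of 0.12 ± 0.20 in the joint fit, while in HDM.AIR mice it was at 1850.4 ± 849 CPM without and 289 ± 129.1 CPM with DEX (-2.63 ± 0.25). Olr1, a scavenger receptor for oxidized lipoprotein, rose here (0.74 ± 0.14) and fell there (-0.83 ± 0.13). Snrnp35, of the minor spliceosome, rose by 0.83 ± 0.06 here and by 0.17 ± 0.06 there. Ltbp4 fell here (-1.34 ± 0.14) and had -0.04 ± 0.13 there, with an adjusted p of the difference of 3.98e-05 (limma-voom). Gbp4 (-2.90 ± 0.35 and -2.12 ± 0.35) and Alas2 (-2.41 ± 0.30 and -2.87 ± 0.44) fell in both, and their differences did not pass.

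In PBS.CS mice 957 genes differed in the effect of DEX (5.78%), and the 3 with the smallest p were lead genes here. Cxcr1 had a log2FC of 4.12 ± 0.25 here and 0.09 ± 0.15 in PBS.CS mice, Stra6l 2.44 ± 0.18 and -0.20 ± 0.10, and Gpnmb 2.65 ± 0.14 and 0.13 ± 0.15. Ctsk (1.99 ± 0.15 and -0.28 ± 0.17) and Lcn2 (1.72 ± 0.23 and -0.05 ± 0.27) followed. Gbp4 (-2.89 ± 0.20 and -2.36 ± 0.19), Fmod (-1.80 ± 0.12 and -1.69 ± 0.15) and Alas2 (-2.40 ± 0.26 and -3.13 ± 0.26) fell in both settings.

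**Figure D4:**
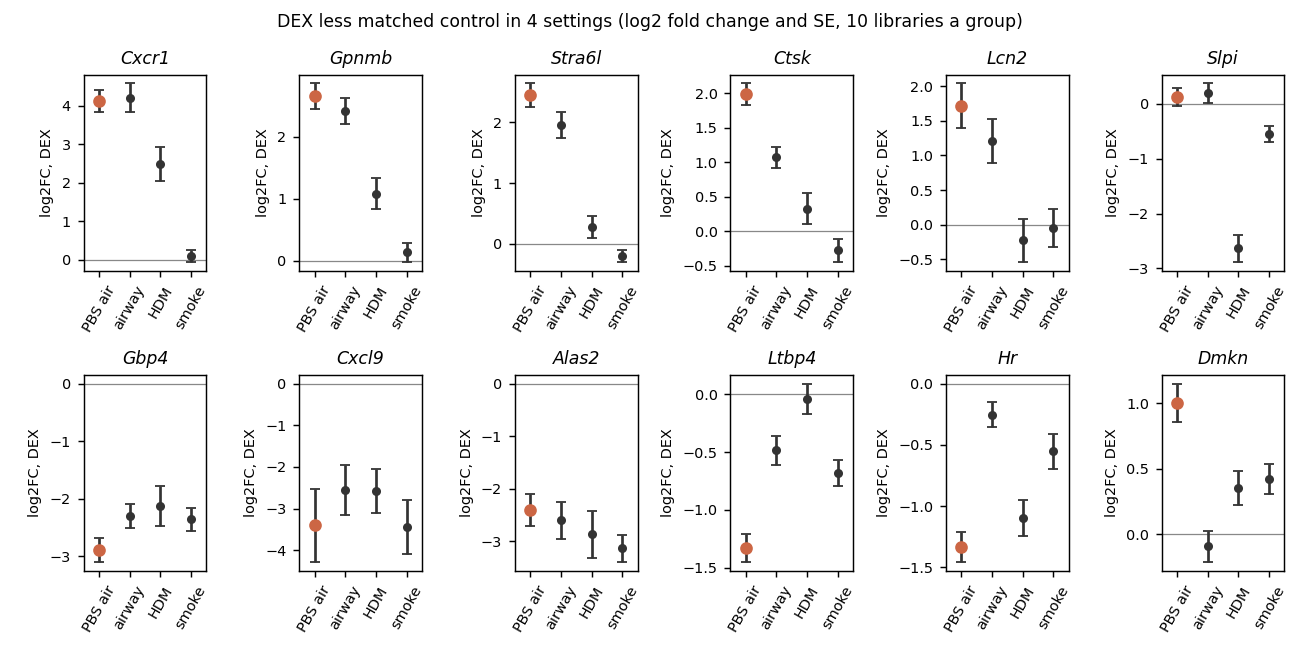
Log2FC of DEX less its own control, with SE, for 12 genes in PBS air parenchyma (orange), PBS air airway, HDM air parenchyma and PBS smoke parenchyma, 10 libraries a group. Cxcr1, Gpnmb, Stra6l, Ctsk and Lcn2 lie between -0.28 and 0.13 in smoke mice, whereas Gbp4, Cxcl9 and Alas2 are below 0 in every setting.

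In smoke-exposed mice without DEX these lead genes stood above PBS.AIR. On the scale of all 160 libraries, Cxcr1 was at 2.31 ± 0.639 CPM in PBS.AIR, 39.5 ± 4.45 in PBS.AIR.DEX, 22.1 ± 2.60 in PBS.CS and 25.1 ± 9.13 CPM in PBS.CS.DEX. Gpnmb was at 40.2 ± 17.6, 240 ± 29.6, 363 ± 59.5 and 406 ± 116.9 CPM in the same order, and Ctsk at 77.3 ± 27.7, 301 ± 70.5, 584 ± 82.04 and 497 ± 134.2 CPM. Genes that respond to smoke through the aryl hydrocarbon receptor or NRF2 were listed after this was seen, and of 11 tested 8 were higher in DEX and none lower, with a median of 0.37. Hmox1, haem oxygenase, rose from 32.5 ± 2.07 to 53.6 ± 11.8 CPM, and Gclc, of glutathione synthesis, from 109.7 ± 11.5 to 159.2 ± 24.4 CPM. Ahrr, Nqo1 and Cyp1b1 in PBS.AIR.DEX lay nearer to PBS.AIR than to PBS.CS. They were picked after values were seen, and the PBS.CS levels of Hmox1 and Gclc are not given here. Ahrr was not among the 11 genes tested. Ahrr, the receptor's repressor, was at 0.436 ± 0.181, 0.253 ± 0.121, 2.27 ± 0.540 and 1.62 ± 0.266 CPM in the 4 groups, Nqo1 at 4.87 ± 0.786, 4.58 ± 0.652, 23.4 ± 16.2 and 19.0 ± 9.84 CPM and Cyp1b1 at 7.00 ± 1.36, 7.94 ± 1.65, 37.8 ± 8.00 and 25.7 ± 6.65 CPM. Cyp1a1 was at 10.5 ± 2.81, 19.4 ± 8.73, 116.9 ± 108.4 and 207 ± 210.3 CPM.

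**Figure D5:**
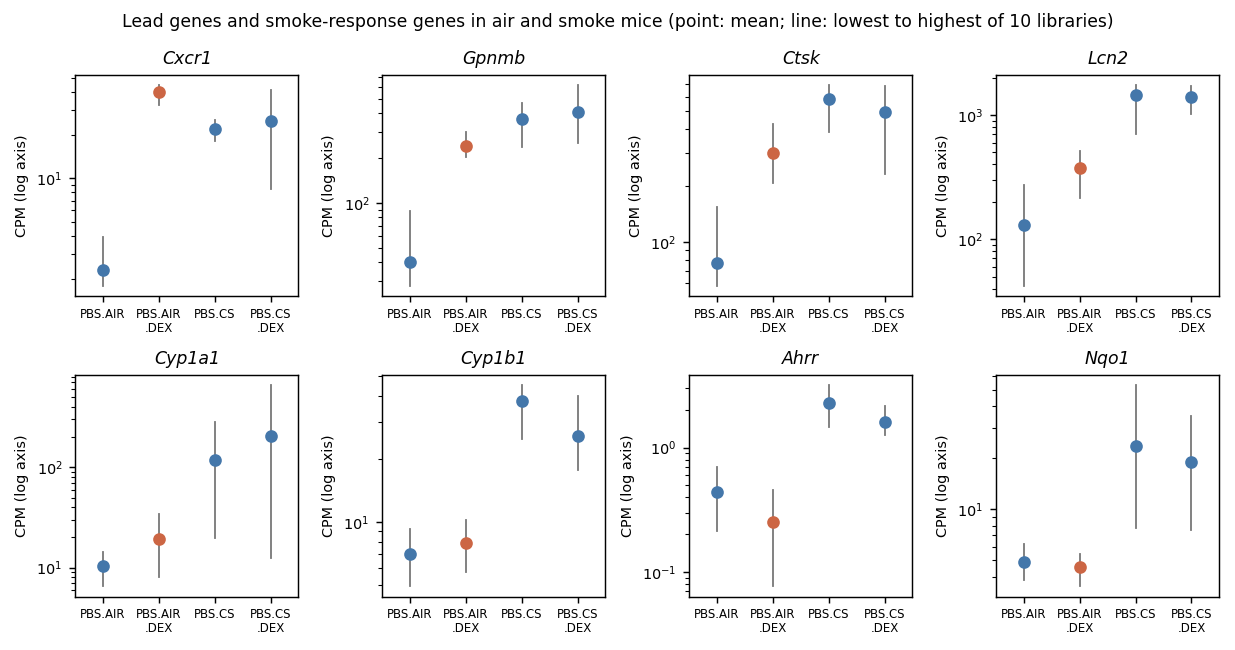
CPM (log axes) of 4 genes that were higher with DEX (top) and 4 smoke-response genes (bottom) in parenchyma of air and smoke mice, with and without DEX. Points are means and lines run from the lowest to the highest of 10 libraries; Ahrr, Nqo1 and Cyp1b1 in PBS.AIR.DEX (orange) lie nearer to PBS.AIR than to PBS.CS.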

How the data were processed

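Bulk RNA-seq of mouse lung was deposited as 1 table of 43346 gene identifiers and 203 libraries. Its values are estimated counts (20.3% of those above 0 are not whole), which the authors made before they deposited the table. The submitters' processing notes name bcl2fastq 2.20.0.422, STAR 2.5.1b, RSEM 1.2.31, kallisto 0.44.0 and mm10, without saying which step made the table. Values were rounded to whole counts. The 20 libraries of week 11 parenchyma titled PBS.AIR and PBS.AIR.DEX were scaled by TMM (edgeR 4.0.16), and a gene was kept where 9 or more libraries reached the CPM that 10 counts make in a library of median size. Groups were compared with limma-voom (limma 3.58.1, R 4.3.3), two-sided, with Benjamini-Hochberg adjustment over all genes tested. Differences of the DEX effect between settings were interaction terms over 40 libraries. The steps were tested on simulated counts. With over 22011675 reads in each library, counting error is small for all but the rarest genes, and intervals cover the spread between libraries.

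Named genes were Nr3c1, the 10 largest rises and falls, the 3 smallest p in each direction, up to 4 members a gene list by size of log2FC among those that passed, the 3 smallest p of each interaction, and all listed glucocorticoid targets. Further list members are given by log2FC, and those were chosen after their values were seen. The members and lists were chosen with earlier results of these data known. Lists of the lysosome, of interferon gamma and of smoke response were added after values were seen, and so were the 3 ranges of library codes. Alternatives were edgeR, DESeq2 1.42.0, other filters, quality weights, wider fits, code terms and leaving out each library. Single values of 3 list members are not reported here. Promoters were RefSeq sequences of GRCm38.p6.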

Additional observations from a re-analysis of the deposited data

Results flagged for a closer look

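Dixon's 95% limit was applied to the larger gap at either end of each group of 10 values. It holds for independent normal values, which CPM need not be, so no number expected by chance is given. In 47 of 416 groups tested, the highest library stood further from the rest than the limit allows. PBS.AIR library X126 was the library that stood apart in 16 of these, in Awat1 (1.11 CPM), Cd200r2 (0.493 CPM), Cd68 (81.7 CPM), Chil3 (803 CPM), Ctsd (1181 CPM), Ctsk (152.9 CPM), Cxcr1 (3.95 CPM), Gpnmb (88.9 CPM), Hal (8.14 CPM), Ighg2b (29.1 CPM), Jchain (257 CPM), Ltf (49.95 CPM), Plin2 (209 CPM), Scgb3a1 (290.5 CPM), Slpi (83.5 CPM) and Stra6l (2.71 CPM). Without it, log2FC became 4.20 for Cxcr1, 2.78 for Gpnmb, 2.10 for Ctsk, 1.42 for Ctsd and 5.19 for Awat1, and all 5 still passed the test. PBS.AIR library X166 stood apart in Clec4d (19.1 CPM), Ddit4 (36.97 CPM), Fam107a (56.4 CPM), Il1r2 (4.92 CPM), Mcpt4 (2.57 CPM), S100a8 (139.8 CPM), Serpina3n (30.7 CPM) and Stfa2l1 (5.55 CPM). DEX library X168 did so in Cdkn1a (131.9 CPM), Cpt1b (4.08 CPM), Ddit4 (34.4 CPM), Fam107a (21.3 CPM) and Hif3a (5.97 CPM), and PBS.AIR library X6 in the red cell genes Alas2 (209 CPM), Hba-a1 (5869 CPM) and Hbb-bt (1223 CPM).

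Other libraries stood apart in fewer genes. PBS.AIR library X66 did so in Actc1 (7.43 CPM), Gbp4 (738 CPM), Iigp1 (167.8 CPM) and Tg (2.34 CPM), X186 in Bcl6 (47.4 CPM) and Tagln (107.5 CPM), X106 in Tnc (20.2 CPM) and X86 in Apob (2.39 CPM). DEX library X48 did so in Actc1 (7.42 CPM) and Rsph4a (39.7 CPM), X108 in Ms4a2 (0.537 CPM) and Stra6l (9.63 CPM), X148 in Ighg2b (2.98 CPM), X188 in Iigp1 (40.6 CPM) and X68 in Gdf15 (12.2 CPM). What sets these libraries apart was not tested.

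The effect of DEX differed between settings by an interaction term. Between parenchyma and airways it did so in 62 genes, with differences in log2FC (parenchyma less airway) of -1.08 in Hr, 0.74 in Tnfsf13 and 1.10 in Dmkn. Between PBS.AIR and HDM.AIR parenchyma it did so in 2676 genes, with differences (PBS.AIR less HDM.AIR) of 2.75 in Slpi, 0.66 in Snrnp35 and 1.57 in Olr1. Between PBS.AIR and PBS.CS parenchyma it did so in 957 genes, with differences (PBS.AIR less PBS.CS) of 4.03 in Cxcr1, 2.64 in Stra6l and 2.52 in Gpnmb.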

How the results depend on the processing

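Counts of genes past the threshold stayed within 1.5 times those reported (2749 higher and 2883 lower) under edgeR (2728 and 2875), DESeq2 (2887 and 2986) and the fit of all 160 libraries (1939 and 2185). Keeping only genes past a log2FC of 1 or -1 left 0.909% and 2.32% of the genes tested, in place of 17.2% and 18.1%. Fits with fewer libraries called fewer genes: 1021 and 1066 in codes X1 to X60 alone (6.40% and 6.68%) and 1205 and 1174 in codes X61 to X120 alone (7.56% and 7.36%). Leaving out 1 library at a time gave 2481 to 2760 higher and 2650 to 3001 lower. Genes that differed between tissues (62, or 0.36% of those tested) were 96 with edgeR (0.558%), 219 with DESeq2 (1.32%), 40 with a stricter filter (0.354%) and 32 with none (0.116%), and 0.773% with quality weights, and the cause was not tested.

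Changes of sign were counted for those of the 207 named genes that passed in the main fit or in the alternative. None of these occurred outside the single code ranges. Changes in genes that passed in neither fit, such as Fkbp5 in X121 to X200, were not counted. Within the single ranges, the log2FC was 0.023 for Actc1 in X1 to X60. In X61 to X120 it was -0.19 for Hsp90aa1, 0.023 for Dusp2, -1.19 for Npas2, -0.63 for Arntl, -0.053 for Aqp4, -0.40 for Adra1a, 0.089 for Igfbp2, 0.18 for Mzb1 and -0.31 for Aldh3a1. In X121 to X200 it was -0.0041 for Pdpn. Arntl lost its call with edgeR (adjusted p = 0.0514) and DESeq2 (adjusted p = 0.0536). Leaving out 1 library changed the call of 11 named genes, and the fit of all 160 libraries lost 44, among them Clca1, Ighg2b, H2-M2, Hsp90aa1, Cd163, Ccl8, Cpt1b, Ager, Tff2, Msln and Cyp1a1. The labels give no replicate numbers that pair libraries. Each run of 20 codes holds 1 PBS.AIR and 1 DEX parenchyma library, and with the run as a block term 2912 genes were higher and 3219 lower.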
